A study of Saccharomyces cerevisiae with 15 samples.

Results

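The genes of yeast mating and of the response to mating pheromone were followed across 3 carbon states of one xylose-fermenting laboratory strain of Saccharomyces cerevisiae. The list of 39 genes was taken by name: the STE genes, the G protein subunit GPA1, the kinase, fusion and agglutination genes, the pheromone genes MFA1 and MFA2, and genes named for induction by pheromone (PRM and FIG). All 39 had a probe set of their own, out of 5656 such genes on the array. Signals of 31 of them rose above a floor of 16 array units on at least 1 array and could be tested, of 4681 genes tested. The other 8 (STE2, STE6, FUS2, KSS1, AGA2, MFA1, BAR1 and PRM2) stayed under the floor on every array. On xylose, 8 of the 31 tested members were higher than in glucose repressed cells and 0 were lower, where 11.7% of all tested probe sets were higher and 14.0% lower. These were the agglutinin anchor AGA1, the mating projection gene AFR1, the adhesin gene FIG2, the fusion gene PRM1, the MAP kinase gene FUS3 and the membrane protein genes PRM4, PRM5 and PRM10. The genes of the signalling chain above them, from receptor to transcription factor, did not pass in that comparison apart from FUS3. STE3, GPA1, STE11 and DIG1 passed as higher under another scaling of the arrays, on reference genes. Under that scaling 19.2% of all probe sets were higher and 5.48% lower.

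The strain, VTT-C-99318, was derived from CEN.PK2-1D, a haploid MATα strain. It carried the Pichia stipitis genes XYL1 (xylose reductase, under the PGK1 promoter) and XYL2 (xylitol dehydrogenase, under a modified ADH1 promoter) at URA3, and an additional copy of its own xylulokinase gene XKS1, also under a modified ADH1 promoter, at HIS3. All samples came from this one engineered strain, with no parent strain beside it, in aerobic batch fermentations that began with 50 g l-1 of glucose or xylose. Glucose repressed cells were taken at 5 h with glucose left in the medium, glucose derepressed cells at 24 h from the same cultures with glucose used up and ethanol present, and xylose-grown cells at 72 h from separate cultures with xylose left. Carbon source and age of the culture changed together in every comparison, between the glucose states as well. Growth rate changed with them, by the doubling times that the study reports. The parts of these factors cannot be told apart.

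Each state had 3 cultures, numbered 0, 1 and 2, and culture 2 was hybridised 3 times in each state, giving 15 arrays and 9 culture samples. These samples are not all independent, since the repressed and derepressed samples of a number came from the same culture. Xylose and derepressed samples of a number, from separate cultures, also deviated together from their state means (r = 0.529 to 0.577 across probe sets). The main fit takes no account of either. Every value below is the scaled signal of a gene in array units, with the hybridisations of culture 2 averaged. Signals can be compared between states for 1 gene, and not between genes. Differences are given on the log2 scale after signals under 16 were set to 16, with the standard error (SE) and the adjusted p of a limma fit over all 5877 tested probe sets, and a gene passed at an adjusted p under 0.05. Where cultures lie at the floor a log2 difference understates the contrast, the spread at the floor is 0 and the p can be too small. The arrays measured whole cultures, so that more cells holding a transcript and more transcript per cell cannot be told apart. Between 50.6 and 53.5% of probe sets were under the floor on each array, and 36.8% of the values of the 39 members. Culture 1 of the glucose derepressed state had an actin 3′ to 5′ signal ratio of 10.28, against 1.86 to 3.01 on the other arrays, and calls that are lost without it are named.

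Haploid yeast cells of type a and type α each secrete a peptide pheromone and carry the receptor for the pheromone of the other type. The bound receptor releases the Ste4-Ste18 dimer from Gpa1, and the signal passes through Ste20, the scaffold Ste5 and the kinases Ste11, Ste7 and Fus3 or Kss1 to the transcription factor Ste12, which the inhibitors Dig1 and Dig2 hold back in its absence. Ste12 then raises transcription of genes for cell cycle arrest, agglutination, the mating projection and cell fusion. In MATα cells the a-specific genes are repressed and the α-specific genes are switched on.

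The a-specific genes were at or near background in every state. STE2, the receptor for α-factor, gave 4.82, 2.67 and 2.90 in glucose repressed cultures 0, 1 and 2, 2.39, 2.76 and 4.28 in derepressed cultures and 3.61, 1.33 and 3.65 on xylose. AGA2, the adhesive subunit of a-agglutinin, gave 3.94, 2.30 and 2.15 in repressed cultures, 3.36, 1.64 and 2.34 in derepressed cultures and 3.33, 2.27 and 2.95 on xylose. Both genes stayed far under the floor in all 9 cultures. BAR1, the protease that degrades α-factor, gave 6.26, 3.62 and 12.0 in repressed cultures, 2.41, 2.09 and 3.54 in derepressed cultures and 5.11, 4.80 and 6.33 on xylose. STE6, the exporter of a-factor, gave 4.89, 4.38 and 6.25 in repressed cultures, 4.21, 9.41 and 7.20 in derepressed cultures and 3.62, 8.58 and 7.53 on xylose. MFA1, a gene for a-factor itself, gave 1.72, 3.43 and 7.10 in repressed cultures, 8.12, 4.07 and 8.14 in derepressed cultures and 6.78, 5.67 and 6.47 on xylose. These genes too were under the floor everywhere, and MFA2, the other a-factor gene, was the only a-specific member above it. Its signal was 7.71, 6.98 and 15.2 in glucose repressed cultures 0, 1 and 2, 25.1, 9.02 and 18.0 in derepressed cultures and 16.7, 10.7 and 12.4 on xylose. The states overlapped, with differences of -0.01 (adjusted p = 1) and -0.27 (adjusted p = 0.45) on xylose against repressed and derepressed cells and 0.25 (adjusted p = 0.276) between the glucose states. With ASG7 added, the a-specific list of 7 genes summed to 23.6 to 46.1 signal units per culture in glucose repressed cells, 29.1 to 46.0 in derepressed cells and 33.6 to 39.8 on xylose.

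**Figure D1:**
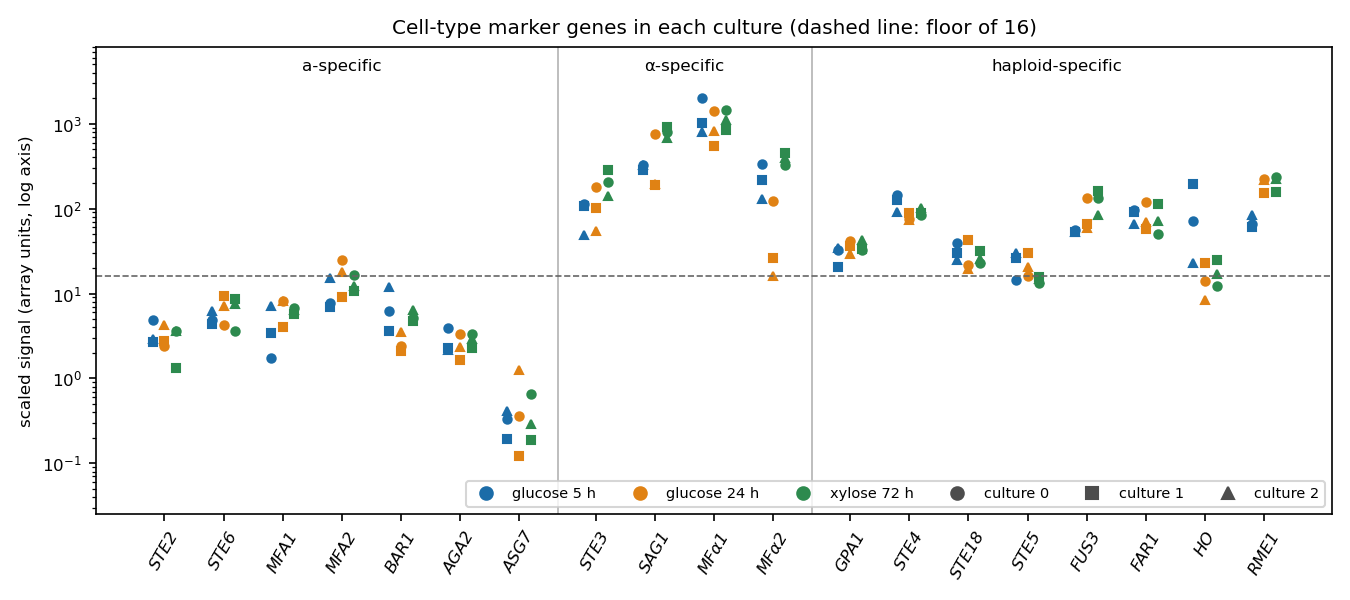
Scaled signal (array units, log axis) of 7 a-specific, 4 α-specific and 8 haploid-specific genes, with 1 point for each culture (colour for the state, shape for the culture number) and a dashed line at the floor of 16. The a-specific genes lie under the floor apart from points of MFA2, while the α-specific genes lie above it, with 2 derepressed cultures of MFα2 near it at 26.1 and 16.1.

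The α-specific genes were above the floor on all arrays, apart from MF(ALPHA)2 in derepressed cells, and both members among them, STE3 and SAG1, had their highest mean signal on xylose. The 4 α-specific genes summed to 1318 to 2782 signal units per culture in repressed cells, 867 to 2461 in derepressed cells and 2299 to 2763 on xylose. The sums of 8 haploid-specific genes, which a/α diploids keep off, were 405.7 to 599.6, 495.2 to 645.3 and 579.5 to 624.8 in the same order. Such sums are led by the genes with the strongest signals, as by the α-factor gene MF(ALPHA)1 with 553 to 2007. Of the 8 haploid-specific genes, 7, 7 and 6 were above the floor on all arrays of the state. The mean of HO was 95.4 in repressed cells and 19.3 on xylose, and that of RME1 70.2 and 205. STE3, the receptor for a-factor, gave 113, 106 and 48.8 in glucose repressed cultures 0, 1 and 2, 178, 101 and 54.3 in derepressed cultures and 207, 282 and 140 on xylose. The 3 xylose cultures lay above the 3 repressed ones and overlapped with the derepressed ones. The difference from glucose repressed cells was 1.27 (SE 0.51, adjusted p = 0.11) and did not pass. It passed with the culture number as a block (adjusted p = 0.0186) and under scaling on reference genes (1.74, adjusted p = 0.0492). SAG1, which encodes α-agglutinin, gave 329, 286 and 329 in repressed cultures, 764, 187 and 195 in derepressed cultures and 788, 903 and 670 on xylose. Culture 0 of the derepressed state thus lay within the xylose range, while the other two lay below all repressed cultures. Its differences were 1.31 against repressed cells (SE 0.50, adjusted p = 0.0959) and 1.36 against derepressed cells (SE 0.50, adjusted p = 0.189), neither of which passed. The first passed under scaling on reference genes (1.79, adjusted p = 0.0406) and with only the 2 states compared (adjusted p = 0.00724). Without derepressed culture 0 both passed, at 1.31 (adjusted p = 0.00204) and 2.03 (adjusted p = 0.00356), and SAG1 was then also lower in derepressed than in repressed cells, by a log2 difference of -0.72 (adjusted p = 0.0179).

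Both α-factor genes, MF(ALPHA)1 and MF(ALPHA)2, were measured beside the members. MF(ALPHA)1 gave 2007, 1011 and 809 in repressed cultures, 1395, 553 and 818 in derepressed cultures and 1444, 851 and 1094 on xylose, with overlap between all states. MF(ALPHA)2 gave 333, 220 and 130 in repressed cultures, 124, 26.1 and 16.1 in derepressed cultures and 324, 455 and 396 on xylose. It was lower in derepressed than in repressed cells (-2.50, SE 0.71, adjusted p = 0.0304) and higher on xylose than in derepressed cells (3.36, SE 0.71, adjusted p = 0.0383), while xylose-grown and repressed cells overlapped (0.87, SE 0.71, adjusted p = 0.416). Neither call held without derepressed culture 1 (adjusted p = 0.0962 and 0.12) or in more than 12 of 21 alternative settings.

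The genes for the heterotrimeric G protein and its regulator had low to moderate signals that mostly did not differ between states. GPA1, the α subunit that holds the pathway off, gave 32.7, 20.5 and 34.8 in repressed cultures, 41.8, 36.3 and 29.1 in derepressed cultures and 32.3, 33.0 and 43.2 on xylose, and the 3 states overlapped. Under scaling on reference genes GPA1 passed as higher than in repressed cells, by 0.80 on xylose (adjusted p = 0.0452) and 0.90 in derepressed cells (adjusted p = 0.0226). STE18, the γ subunit, gave 39.5, 30.2 and 24.9 in repressed cultures, 21.9, 42.4 and 19.7 in derepressed cultures and 22.6, 31.7 and 25.7 on xylose. SST2, which speeds up the return of Gpa1 to its inactive form, gave 31.8, 34.8 and 48.1 in repressed cultures, 43.0, 17.5 and 26.9 in derepressed cultures and 31.2, 60.7 and 39.0 on xylose. The states overlapped for both genes. STE4, the β subunit that carries the signal onward, gave 145, 126 and 90.7 in repressed cultures, 74.7, 87.8 and 72.5 in derepressed cultures and 83.7, 89.3 and 103 on xylose. The derepressed cultures lay below all repressed ones, and the xylose cultures overlapped with the repressed ones. STE4 was lower in derepressed than in repressed cells (-0.60, SE 0.19, adjusted p = 0.043). This call was lost in 17 of 21 alternative settings, among them the culture number as a block (adjusted p = 0.0607) and scaling on reference genes, where the difference shrank to -0.01. It was also lost without derepressed culture 1 (-0.69, adjusted p = 0.0512).

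Of the kinase cascade, FUS3 passed on xylose. FUS3 encodes the MAP kinase that is dedicated to mating. Its signal was 56.0, 53.6 and 53.3 in repressed cultures, 135, 65.7 and 58.5 in derepressed cultures and 135, 161 and 84.5 on xylose. Every xylose culture lay above every repressed culture, and derepressed culture 0 reached the level of xylose culture 0. The mean rose from 54.3 ± 1.5 in repressed cells to 127 ± 39.1 on xylose (SD, n = 3), a difference of 1.17 (SE 0.35, adjusted p = 0.0451). The call lay near the threshold. It was lost without any one of the 3 repressed cultures (adjusted p 0.0907 to 0.117), derepressed cultures 1 or 2 (0.0626 and 0.0508) or xylose cultures 0 or 1 (0.13 and 0.135). A second FUS3 probe set, with signals from 6.05 to 96.4, had a difference of 1.53 and an adjusted p of 0.104, and the third was under the floor throughout. KSS1, the partner of Fus3 that also serves filamentous growth, was under the floor throughout, at 7.77, 6.48 and 3.26 in repressed cultures, 3.42, 3.63 and 5.35 in derepressed cultures and 6.59, 13.0 and 7.83 on xylose.

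The kinases upstream did not pass in any comparison at these settings. STE11, whose kinase is shared with the osmotic stress and filamentous growth pathways, gave 30.5, 23.4 and 25.4 in repressed cultures, 35.9, 33.2 and 36.6 in derepressed cultures and 30.2, 41.4 and 37.1 on xylose. Its differences from repressed cells were 0.45 on xylose (adjusted p = 0.067) and 0.42 in derepressed cells (adjusted p = 0.0697), and both passed under scaling on reference genes (0.92, adjusted p = 0.00467, and 1.01, adjusted p = 0.002). STE20, which activates Ste11, gave 7.96, 21.2 and 32.6 in repressed cultures, 32.1, 34.6 and 24.2 in derepressed cultures and 26.3, 18.2 and 15.7 on xylose. Its states overlapped. STE7, the kinase between Ste11 and Fus3, lay at or near the floor, with 11.7, 13.2 and 15.4 in repressed cultures, 14.3, 24.2 and 16.6 in derepressed cultures and 19.9, 17.7 and 14.3 on xylose. STE5, the scaffold that holds the 3 kinases, gave 14.4, 26.4 and 29.8 in repressed cultures and 16.2, 29.6 and 20.6 in derepressed cultures, and on xylose its signals of 13.4, 15.9 and 14.8 were all under the floor. MSG5, whose phosphatase inactivates Fus3, was under the floor in all repressed cultures (6.43 to 11.6) and gave 20.9, 12.1 and 22.4 in derepressed cultures and 32.9, 15.9 and 19.0 on xylose, with adjusted p-values of 0.252 or more in the 3 comparisons.

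Nor did Ste12 and its partners pass in any comparison at these settings. STE12, the transcription factor at the end of the cascade, gave 17.0, 22.0 and 24.4 in repressed cultures, 17.6, 6.81 and 10.0 in derepressed cultures and 15.8, 25.8 and 15.3 on xylose, with overlap between the states. KAR4, which acts with Ste12 on the later genes of mating, gave 26.4, 13.1 and 25.0 in repressed cultures, 22.0, 16.8 and 9.75 in derepressed cultures and 20.1, 51.4 and 31.5 on xylose. DIG1, an inhibitor of Ste12, gave 34.4, 38.8 and 50.8 in repressed cultures, 110, 44.4 and 65.6 in derepressed cultures and 131, 72.7 and 61.0 on xylose. All xylose cultures lay above the repressed ones, as they did for 19.4% of all probe sets, with a difference of 1.03 (SE 0.40, adjusted p = 0.0959) that did not pass. Under scaling on reference genes DIG1 passed as higher than in repressed cells, on xylose (1.51, adjusted p = 0.0379) and in derepressed cells (1.34, adjusted p = 0.0459). DIG2, the second inhibitor, had differences of the opposite sign, with 17.7, 30.4 and 33.1 in repressed cultures and 19.7, 16.4 and 14.4 on xylose (-0.60, SE 0.24, adjusted p = 0.106).

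The 4 genes for pheromone maturation had 0 calls in either direction at these settings, and 1 difference of theirs, that of STE24 on xylose, had an unadjusted p under 0.05. STE13 encodes the dipeptidyl aminopeptidase that trims the α-factor precursor, and its signals of 18.6 to 47.5 overlapped between states. STE14, the methyltransferase for the a-factor C terminus, gave 72.4, 62.0 and 60.1 in repressed cultures, 19.6, 22.0 and 53.7 in derepressed cultures and 15.8, 46.1 and 53.8 on xylose. Although all repressed cultures lay above the others, the spread within the later states was wide, and the differences of -1.18 in derepressed cells (adjusted p = 0.128) and -0.92 on xylose (adjusted p = 0.246) did not pass. STE24, a protease that cleaves the a-factor precursor at both ends, gave 154, 102 and 158 in repressed cultures, 117, 97.4 and 121 in derepressed cultures and 101, 88.2 and 68.0 on xylose (-0.68 against repressed cells, SE 0.22, adjusted p = 0.0597). Its xylose cultures all lay below the repressed ones. STE24 passed as lower on xylose under cyclic loess (-0.75, adjusted p = 0.0299) and without repressed culture 1 (-0.88, adjusted p = 0.0233). STE23, an a-factor protease that partly stands in for Axl1, gave 8.47, 37.9 and 16.5 in repressed cultures and 26.4, 83.1 and 27.7 in derepressed ones. Each derepressed value was above the repressed value of the same culture, and the difference of 0.84 had an adjusted p of 0.265 without the culture number as a block and of 0.0176 with it.

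The genes that act last, in arrest, agglutination, the mating projection and cell fusion, held 4 of the 8 calls on xylose against repressed cells. The group had 7 tested genes, with SAG1 not counted among them. In that comparison 11.7% of all tested probe sets were higher and 14.0% lower. AGA1, the cell wall anchor of a-agglutinin, which pheromone induces in cells of both types, gave 34.7, 49.1 and 90.5 in repressed cultures, 268, 52.4 and 58.9 in derepressed cultures and 257, 398 and 254 on xylose. The xylose cultures lay above all repressed ones, and of the derepressed cultures only culture 0 reached their range. AGA1 was higher on xylose than in repressed cells by 2.47 (SE 0.65, adjusted p = 0.0288), the mean signals being 303 ± 82 and 58.1 ± 29 (SD, n = 3). With the culture number as a block the adjusted p was 0.0509, and without repressed culture 0 or 1 or any one xylose culture it lay between 0.0705 and 0.11. Against derepressed cells the difference was 1.66 (SE 0.65, adjusted p = 0.218), and without derepressed culture 0 it was 2.41 (adjusted p = 0.0366).

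AFR1, which is needed for the mating projection and tempers receptor signalling, differed in all 3 comparisons. Its signal was 7.58, 6.68 and 19.6 in repressed cultures, 37.7, 37.9 and 32.8 in derepressed cultures and 57.5, 71.5 and 62.2 on xylose, and no state overlapped with another. It was higher in derepressed than in repressed cells by 1.08 (SE 0.13, adjusted p = 0.00111) and higher again on xylose, by 0.82 over derepressed cells (SE 0.13, adjusted p = 0.0174) and 1.89 over repressed cells (SE 0.13, adjusted p = 0.000223). Since 2 of the 3 repressed cultures lay under the floor, the differences from repressed cells are understated. The difference of 1.89 passed in 21 of 21 alternative settings. That of 1.08 passed in 20, and with a floor of 32 it was 0.18 (adjusted p = 0.213). The call between xylose-grown and derepressed cells was lost without xylose culture 1 (adjusted p = 0.0659) or 2 (0.0578), with a floor of 4 or 8 (0.333 and 0.252), with unscaled signals (0.0905) and with scaling on reference genes (0.062).

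FIG2, which encodes a cell wall adhesin of mating cells, was under the floor in all repressed cultures, at 3.45, 6.15 and 10.3. It gave 20.5, 9.47 and 11.6 in derepressed cultures and 25.2, 64.8 and 31.7 on xylose, where every culture lay above every glucose culture. It was higher on xylose than in repressed cells by at least 1.22 on the log2 scale (SE 0.32, adjusted p = 0.0285), against the floor of 16. The call was lost without any one repressed culture (adjusted p 0.0611 to 0.0866) or without xylose culture 2 (0.0568), with only the 2 states compared (0.0855) and with a floor of 32, where the difference was 0.36 (adjusted p = 0.353). Against derepressed cells the difference of 1.10 did not pass (adjusted p = 0.104). FIG1, a membrane protein gene of calcium entry during mating, was under the floor everywhere except in xylose culture 1, at 39.5 against 11.1 and 14.8 in the other xylose cultures and at most 4.78 on glucose.

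PRM1, whose product acts in fusion of the plasma membranes of mating cells, passed against repressed cells. Its signal was 12.7, 11.6 and 18.5 in repressed cultures, 59.3, 13.9 and 20.8 in derepressed cultures and 87.2, 119 and 82.7 on xylose, and the xylose cultures lay above all 6 glucose cultures. PRM1 was higher on xylose than in repressed cells by 2.50 (SE 0.45, adjusted p = 0.00697), a call that held in 21 of 21 alternative settings. The difference of 1.82 from derepressed cells (SE 0.45, adjusted p = 0.0621) did not pass, and without derepressed culture 0 it was 2.38 (adjusted p = 0.00568).

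The other members that act in arrest and fusion did not pass. FAR1, which arrests the cell cycle and directs polarity towards the partner, gave 95.5, 90.0 and 65.6 in repressed cultures, 121, 57.9 and 69.8 in derepressed cultures and 50.2, 112 and 70.5 on xylose, with overlap between the states. FUS1, a cell surface protein gene of fusion and a widely used reporter of the pathway, gave 6.10, 6.93 and 17.5 in repressed cultures, 23.3, 10.9 and 7.78 in derepressed cultures and 15.2, 36.0 and 20.0 on xylose (0.44 against repressed cells, SE 0.30, adjusted p = 0.322). FUS2, which acts with Fus1, was under the floor throughout. Its measured signals were 3.92, 3.37 and 3.38 in repressed cultures, 9.94, 10.0 and 9.26 in derepressed cultures and 10.1, 14.0 and 10.9 on xylose, and the order of the states had no test at the floor of 16.

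**Figure D2:**
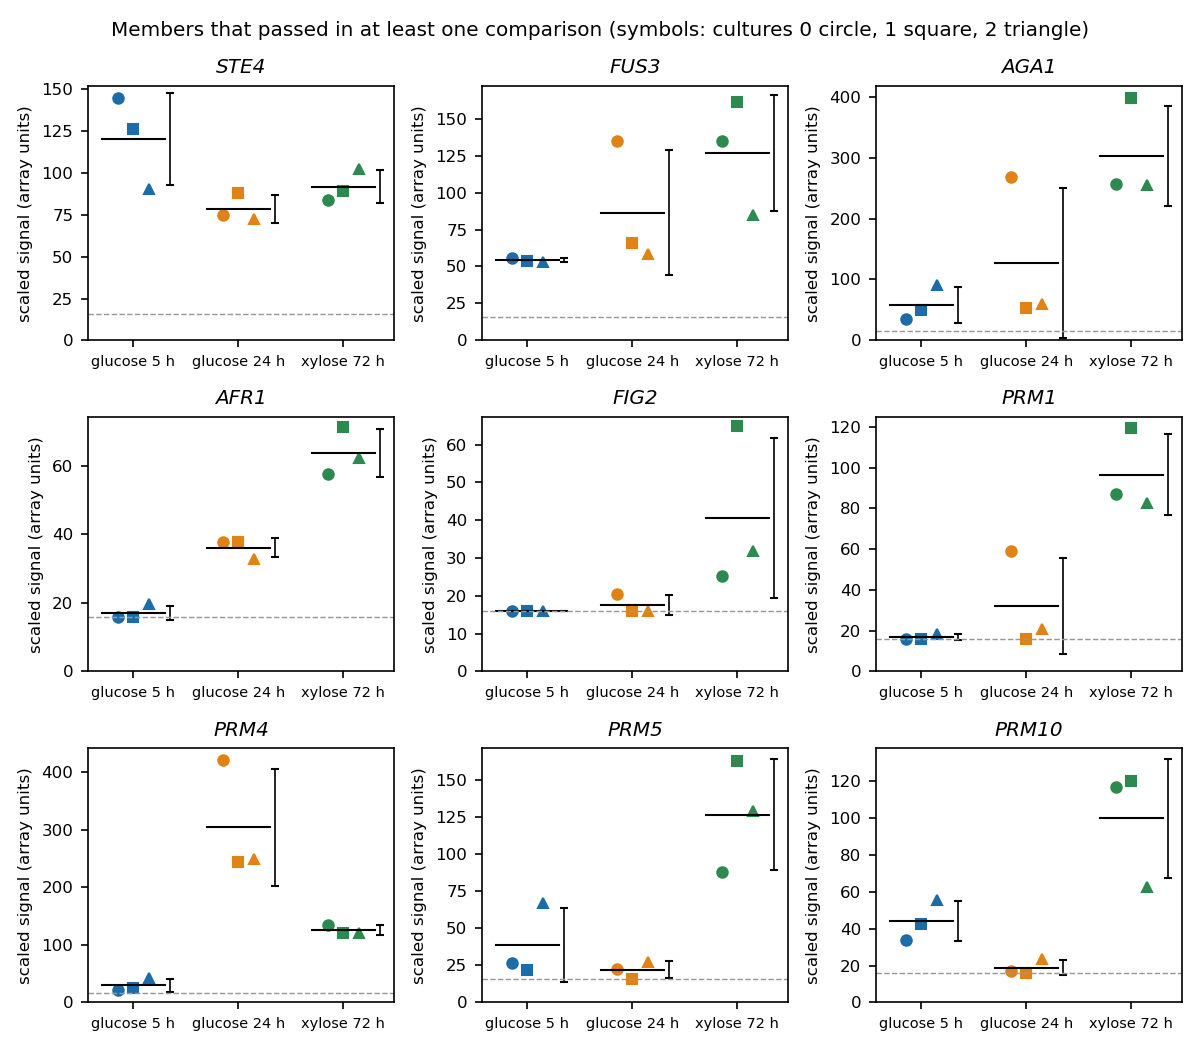
Scaled signal (array units, linear axis from 0, signals under 16 drawn at 16, dashed line at 16) of the members that passed in at least 1 comparison, with 1 point for each culture, a bar at the mean of 3 cultures and an error bar of 1 SD. AFR1 steps up from glucose repressed to derepressed to xylose-grown cells, PRM4 is highest in derepressed cells, and PRM10 is lowest there.

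The remaining pheromone-regulated membrane proteins did not share one order of the states. Their products are known mainly as membrane proteins whose genes respond to pheromone. PRM4 gave 21.2, 24.7 and 42.4 in repressed cultures, 422, 243 and 248 in derepressed cultures and 135, 120 and 121 on xylose, and no state overlapped with another. Its mean rose from 29.4 ± 11.3 in repressed cells to 304 ± 102 in derepressed cells (SD, n = 3), a difference of 3.39 (SE 0.30, adjusted p = 0.000296), and to 125 ± 8.14 on xylose, a difference of 2.16 (SE 0.30, adjusted p = 0.0028). Both calls held in 21 of 21 alternative settings. PRM4 was thus the only one of the 8 with its highest mean in derepressed cells, although its difference between xylose-grown and derepressed cells (-1.23, SE 0.30, adjusted p = 0.0621) did not pass at these settings and passed under quantile normalization (-1.50, adjusted p = 0.0195), cyclic loess (-1.41, adjusted p = 0.0391) and a floor of 32 (-1.23, adjusted p = 0.023).

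PRM5 gave 26.4, 21.9 and 67.1 in repressed cultures, 22.7, 11.6 and 27.2 in derepressed cultures and 87.9, 163 and 129 on xylose, above all 6 glucose cultures. It was higher on xylose than in both glucose states, by 1.86 over repressed cells (SE 0.45, adjusted p = 0.0211) and 2.51 over derepressed cells (SE 0.45, adjusted p = 0.022). The first call was lost without repressed culture 0 or 1 or xylose culture 1 or 2 (adjusted p 0.0646 to 0.0826), and the second without any one derepressed culture or xylose culture 1 or 2 (0.052 to 0.0915).

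PRM10 gave 33.9, 42.5 and 55.4 in repressed cultures, 16.9, 13.6 and 23.5 in derepressed cultures and 117, 120 and 62.8 on xylose, and no state overlapped with another. It was lower in derepressed than in repressed cells (-1.22, SE 0.31, adjusted p = 0.0188) and higher on xylose than in either, by 2.37 over derepressed cells (SE 0.31, adjusted p = 0.00708) and 1.15 over repressed cells (SE 0.31, adjusted p = 0.0298). The difference of 2.37 passed in 21 of 21 alternative settings. That of 1.15 had an adjusted p of 0.0543 with the culture number as a block and of 0.0759 to 0.106 without repressed culture 0 or 1 or xylose culture 0 or 1. The decrease in derepressed cells was lost without repressed culture 1 or 2 or derepressed culture 0 or 1 (adjusted p 0.0514 to 0.0617), under scaling on reference genes (-0.70, adjusted p = 0.197) and with a floor of 32 (-0.43, adjusted p = 0.286). PRM2, the fourth gene of this group, gave 2.48, 1.19 and 3.52 in repressed cultures, 1.08, 4.59 and 3.28 in derepressed cultures and 11.0, 12.5 and 12.7 on xylose. The xylose cultures were the highest, but all 9 values lay under the floor of 16. With a floor of 4, PRM2 was higher on xylose than in both repressed cells (1.58, adjusted p = 4e-04) and derepressed cells (1.52, adjusted p = 0.00343).

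**Figure D3:**
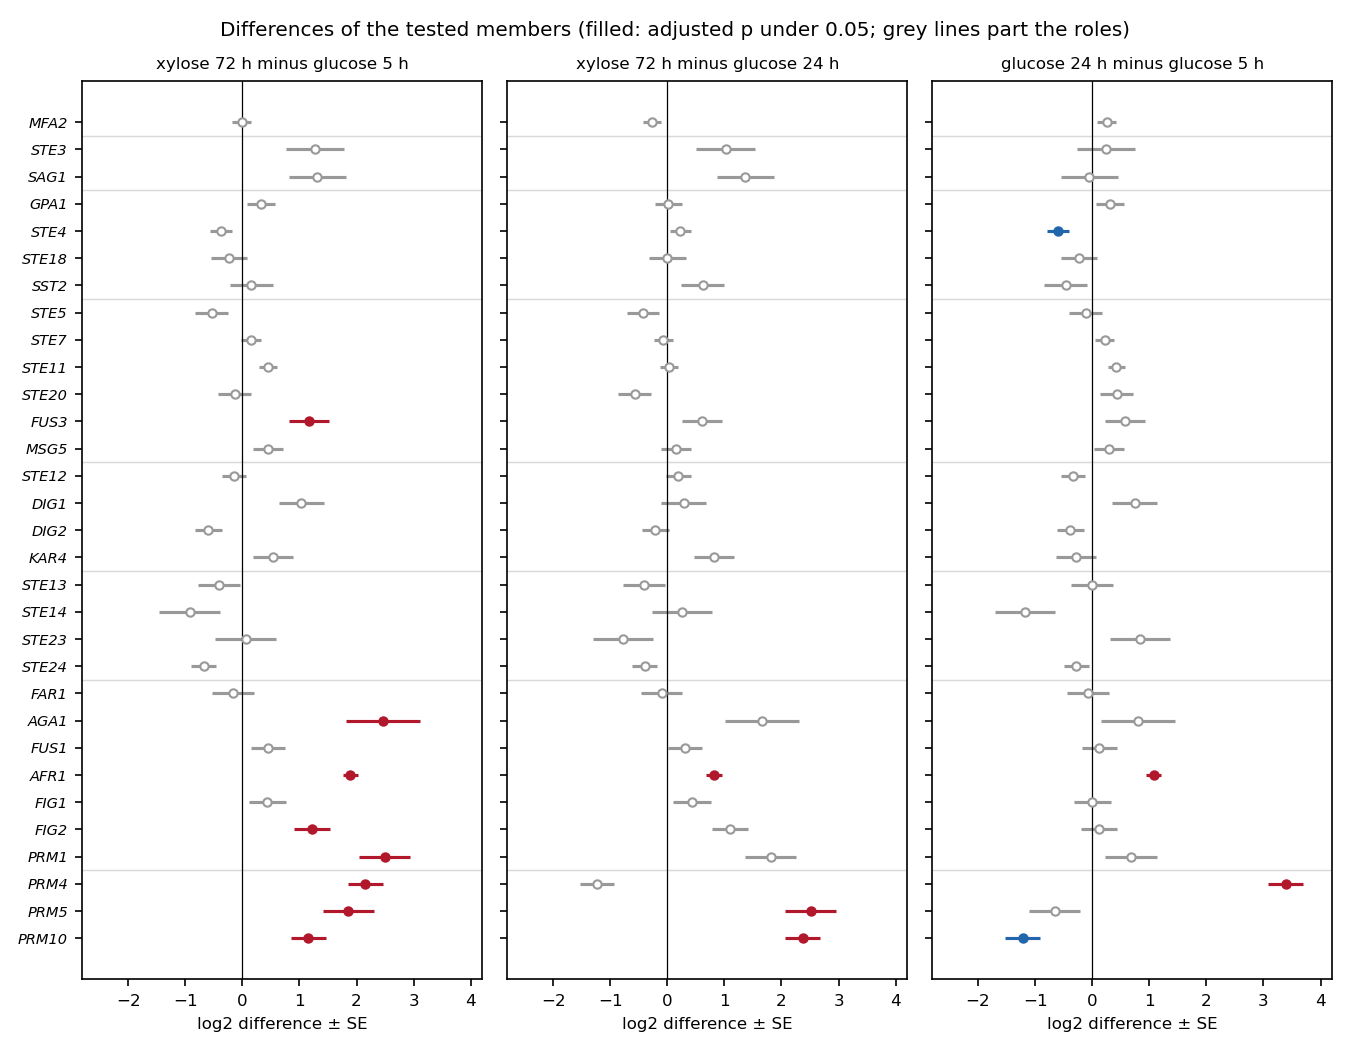
Log2 differences between states (signals under 16 set to 16) for each of the 31 tested members, grouped by role, with bars of 1 SE and filled symbols where the adjusted p is under 0.05. Filled symbols on the xylose comparisons lie to the right of 0 and sit mostly among the agglutination, fusion and membrane protein genes.

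Counted over the list, xylose against glucose repressed cells gave 8 higher and 0 lower of 31 tested members, where 11.7% of all tested probe sets were higher and 14.0% lower. The median difference of the 31 was 0.43, against -0.02 over all tested probe sets. This was the value of FIG1, which rose above the floor only in xylose culture 1. Without that culture the median was 0.15, against -0.02 over all. At an unadjusted p under 0.05, 12 members were higher and 2 lower. Xylose against derepressed cells gave 3 higher (AFR1, PRM5 and PRM10) and 0 lower, with 3.37% of all probe sets higher and 2.26% lower, a median of 0.23 against 0, and 7 higher and 1 lower before adjustment. Without xylose culture 1 the median of this comparison was 0.04 against 0. Derepressed against repressed cells gave 2 higher (AFR1 and PRM4) and 2 lower (STE4 and PRM10), with 14.4% of all probe sets higher and 19.1% lower, a median of 0.12 against -0.03, and 3 higher and 2 lower before adjustment. The comparisons share their samples in pairs and are not independent of each other. Over all probe sets, 686 were higher and 822 lower on xylose than in repressed cells, and 1140 and 326 with the arrays scaled on 4 reference genes, which shifted the median of all probe sets to 0.14. Under that scaling 13 members were higher and 0 lower. The split between derepressed and repressed cells was 845 higher and 1124 lower, 1444 and 522 on reference genes (median 0.26), and 1022 and 840 without scaling. That between xylose-grown and derepressed cells was 198 higher and 133 lower, 105 and 133 on reference genes, and 106 and 164 without scaling.

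Xylose-grown cells had the highest mean of the 3 states for 17 of the 31 members and the lowest for 7, or 54.8% and 22.6%, while over all tested probe sets the shares were 23.3% and 21.9%. All 3 xylose cultures lay above all 6 glucose cultures for 5 members (AFR1, FIG2, PRM1, PRM5 and PRM10), as they did for 4.53% of all tested probe sets. They lay below all 6 for 0 members, against 2.01% of all. Between 2 states alone a lack of overlap was common. On xylose against repressed cells 11 members lay wholly above and 2 below, against 19.4% and 21.6% of all probe sets. Against derepressed cells it was 5 and 2 (14.5% and 10.3% of all). For derepressed against repressed cells it was 4 and 3 (18.6% and 23.9%). By role, calls on xylose against repressed cells fell on 4 of 7 tested genes of arrest, agglutination and fusion (median 1.22). They also fell on 3 of 3 of the other membrane proteins (median 1.86) and 1 of 6 of the kinase cascade (median 0.30). Over all tested probe sets, 11.7% were called higher and 14.0% lower. The 2 α-specific members, the agglutinin gene SAG1 among them, were counted apart and had 0 calls. The 4 genes of the G protein and its regulator (median -0.04), the 4 of transcription (median 0.20) and the 4 of pheromone maturation (median -0.54) had 0 calls in that comparison with limma at these settings. At an unadjusted p under 0.05 these groups had 0, 2 (DIG1 and DIG2) and 1 (STE24).

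**Figure D4:**
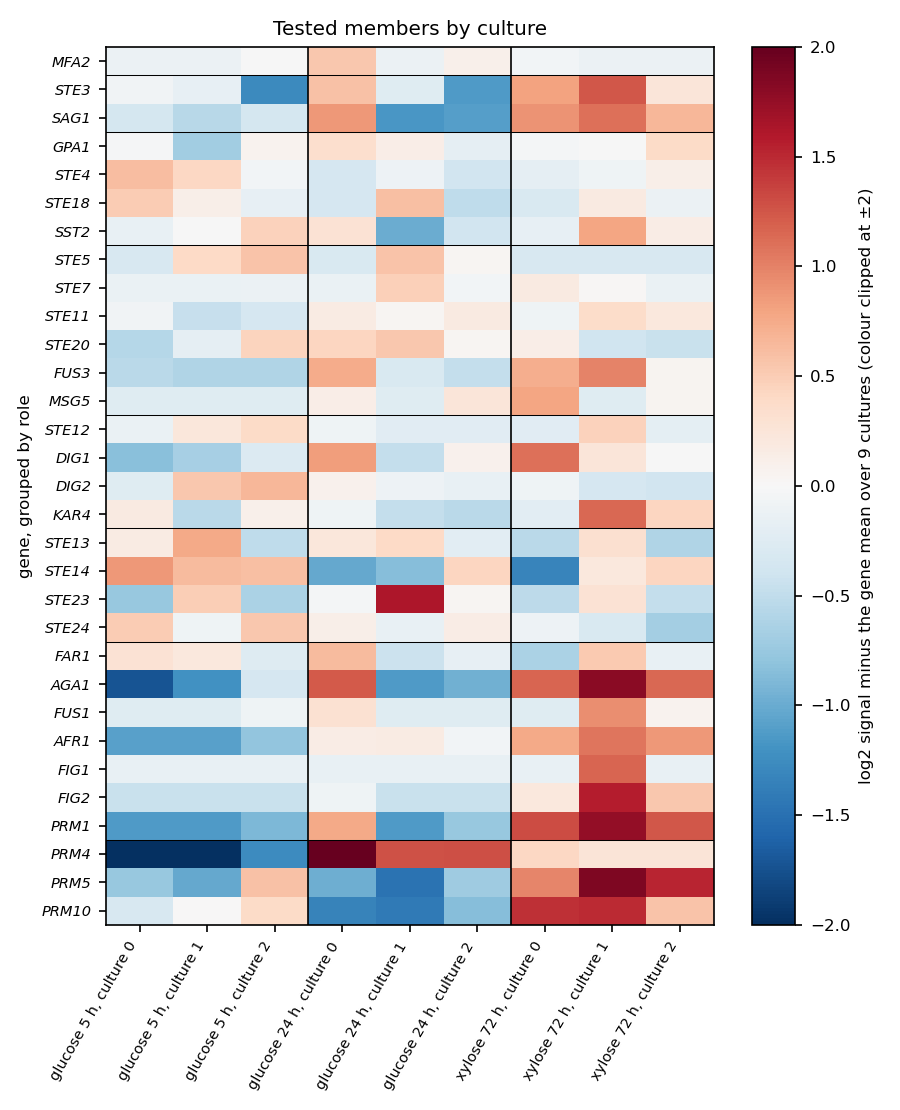
Log2 signal of the 31 tested members in each of the 9 cultures as the difference from the gene's mean over all cultures (colour scale), with members in rows grouped by role and cultures in columns grouped by state (signals under 16 set to 16). Most genes of agglutination, fusion and the membrane protein group are high in the xylose columns, and derepressed culture 0 is high for AGA1, SAG1 and PRM1.

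Within a state, a single culture often held the highest value of many members. In the derepressed state culture 0 was the highest for 16 of the 30 members that had a single highest culture, or 53.3%, against 33.8% of all tested probe sets. Among its high values were AGA1 at 268 beside 52.4 and 58.9, SAG1 at 764 beside 187 and 195, PRM1 at 59.3 beside 13.9 and 20.8 and FUS3 at 135 beside 65.7 and 58.5. On xylose culture 1 was the highest for 19 of 30 members, or 63.3% against 36.4% of all, with a median of 0.48 above the mean of the other two. In the repressed state culture 2 was the highest for 18 of 28, or 64.3% against 33.4% of all. The spread between cultures, as the root mean square SD of the 31 members on the log2 scale, was 0.396 in repressed, 0.559 in derepressed and 0.452 in xylose-grown cells. Repeated hybridisations of culture 2 had 0.125, 0.203 and 0.161. Without derepressed culture 0 the members passing numbered 9 for xylose against repressed cells, 5 for xylose against derepressed cells and 3 for derepressed against repressed cells. In the same order 11.2, 2.06 and 12.2% of all tested probe sets were higher and 12.3, 1.57 and 14.8% lower. Without derepressed culture 1, the one with the high actin ratio, the members passing numbered 7, 2 and 2. There 11.9, 2.04 and 13.6% of all were higher and 13.5, 1.75 and 16.7% lower.

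Other genes of the pathway were read from 5 further lists. As given above, 11.7% of all tested probe sets were higher and 14.0% lower on xylose than in repressed cells, 3.37% and 2.26% than in derepressed cells, and 14.4% and 19.1% in derepressed than in repressed cells. Of 7 tested genes for pheromone synthesis and processing, 0 were higher and 2 lower on xylose than in repressed cells, with 1 higher before adjustment. These were RAM1, the β subunit of farnesyltransferase (-0.56, adjusted p = 0.0486), and RCE1, a protease of a-factor maturation (-1.35, adjusted p = 0.0264). In derepressed against repressed cells both were lower too, with MF(ALPHA)2 the third lower gene, and AXL1, the protease that cuts the a-factor precursor last, was higher (0.69, adjusted p = 0.0109). MF(ALPHA)2 was the 1 gene of the 7 that passed between xylose-grown and derepressed cells. Of 10 tested polarity and adaptor genes, only CDC42, the GTPase of polarised growth, passed, being lower than in repressed cells both on xylose (-0.75, adjusted p = 0.00887) and in derepressed cells (-1.06, adjusted p = 0.00165). Of 9 other induced or karyogamy genes, PRM8 was higher on xylose than in repressed cells and KAR3, the kinesin of nuclear fusion, was lower (-0.53, adjusted p = 0.0357). PRM8 gave 21.0, 28.7 and 25.4 in repressed cultures and 58.4, 66.7 and 56.7 on xylose (1.28, SE 0.22, adjusted p = 0.00559). The other comparisons of this group had 0 calls, with 2 genes higher in each at an unadjusted p under 0.05. The polarity genes had 0 calls between xylose-grown and derepressed cells, and 1 was lower before adjustment.

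Among 9 tested genes of cell type regulation, RME1, the haploid repressor of meiosis, was higher than in repressed cells both on xylose (1.54, adjusted p = 0.0033) and in derepressed cells (1.49, adjusted p = 0.00248). ASH1, the daughter-cell repressor of HO, was higher in derepressed than in repressed cells (1.39, adjusted p = 0.0109). The group had 0 calls between xylose-grown and derepressed cells, with 1 gene lower before adjustment. IME1, the inducer of meiosis, was under the floor in all repressed cultures and gave 75.5, 13.5 and 19.9 in derepressed cultures and 33.4, 8.41 and 12.2 on xylose, and did not pass. The 12 genes of neighbouring kinase pathways held 5 higher and 0 lower calls on xylose against repressed cells (11.7% higher and 14.0% lower over all tested probe sets), and 6 higher and 0 lower before adjustment. They were TEC1, the partner of Ste12 in filamentous growth (1.54, adjusted p = 0.0399), and 4 genes of the cell wall integrity pathway, whose MAP kinase Slt2 acts on the transcription factor Rlm1. SLT2 gave 28.1, 23.2 and 39.4 in repressed cultures, 40.6, 37.8 and 39.8 in derepressed cultures and 104, 109 and 92.0 on xylose, above all 6 glucose cultures. It was higher on xylose than in repressed cells by 1.78 (SE 0.19, adjusted p = 0.000987) and than in derepressed cells by 1.37 (SE 0.19, adjusted p = 0.00919). RLM1 (2.01, adjusted p = 0.0107) and the kinase genes MKK1 (1.14, adjusted p = 0.0223) and MKK2 (0.72, adjusted p = 0.0435) were the other three. RLM1, MKK1 and MKK2 were also higher in derepressed than in repressed cells, where 14.4% of all probe sets were higher. PRM5, one of the members, is a known target of Rlm1 as well as of pheromone. Whether the values of SLT2 and RLM1 have a part in those of PRM5 was not tested.

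The 23 calls on genes of these further lists kept their direction under all alternative settings that tested them. Those of PRM8, RME1, ASH1 and SLT2, and that of RLM1 on xylose, passed in 21 of 21. The call of RAM1 on xylose was lost in 18 and that of RLM1 in derepressed cells in 14. On xylose the calls of TEC1, MKK2 and KAR3 were lost in 10 each (for KAR3 of 20), that of RCE1 in 8 and that of MKK1 in 6. Without derepressed culture 1, MF(ALPHA)2 lost both calls, RAM1 its call on xylose (adjusted p = 0.0667), and MKK1 (0.0515) and RLM1 (0.0584) theirs in derepressed cells. Scaling on reference genes ended every call of a lower gene among these lists, at -0.09 on xylose and -0.13 in derepressed cells for RAM1, -0.95 and -0.97 for RCE1, -0.28 and -0.46 for CDC42, -0.13 on xylose for KAR3 and -1.91 in derepressed cells for MF(ALPHA)2. With the culture number as a block, RAM1 on xylose (adjusted p = 0.0526), TEC1 (0.0591) and RLM1 in derepressed cells (0.0524) no longer passed. The block added AXL1 (0.0368), HO (-1.84, adjusted p = 0.0459) and OPY2 (1.51, adjusted p = 0.0272) on xylose against repressed cells, HO in derepressed cells (-1.92, adjusted p = 0.0335) and CHS1 on xylose against derepressed cells (1.03, adjusted p = 0.0425).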

How the data were processed

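RNA of 9 yeast culture samples, 3 in each of 3 carbon states, was measured on 15 Affymetrix Yeast Genome S98 arrays. The authors deposited 1 linear signal intensity for each probe set and array. The values range from 0.000039 to 5008, and their mean after trimming 2% at each end is 50 on every array, as the scaling of the array vendor's statistical algorithm gives. The study's methods describe robust multi-array averages on the log2 scale, which these intensities are not, so signals were tested on the log2 scale after scaling and a floor. The methods name Affymetrix MicroArray Suite 5.0 as the software that extracted the data. Groups and times were taken from the sample titles, since the treatment text of some samples gives another time. All columns were mapped to samples.

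Of 9335 probe sets, 60 were controls. By the platform annotation, 6504 named 1 gene, 328 several and 2443 none. Probe sets of several genes, MATALPHA1 and MATALPHA2 among them, were not analysed here. A gene is represented by its probe set with the highest mean signal. Each array was scaled to a 75th percentile of 51.08, signals under 16 were set to 16, and values were averaged in log2 over the 3 hybridisations of culture 2. Probe sets at the floor on every array were left out. The 3 states were fitted in one model over the remaining 5877 with limma 3.58.1 in R 4.3.3 (lmFit and eBayes, two-sided, Benjamini-Hochberg). The fit was tested on simulated data, with changes set only in probe sets well above the floor and with independent noise. That test does not cover genes near the floor or cultures that deviate together. The number of arrays limits the precision, and an exact permutation test of 3 cultures against 3 cannot go below p = 0.1. The p-values rest on 1 spread for each probe set, pooled over the 3 cultures of all 3 states and moderated across the tested probe sets. A p for 2 states thus also depends on the cultures of the third. All cultures were of one strain. Figures were drawn with matplotlib 3.10.9.

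Culture numbers pair the samples. Glucose samples of the same number came from the same culture, and deviations from the state means correlated between same-numbered xylose and derepressed samples (r = 0.577, 0.529 and 0.566 across probe sets), xylose and repressed samples (0.11, 0.284 and 0.202) and derepressed and repressed samples (0.02, 0.19 and 0.26). The fit carries no block, and blocked values are given where they change a call of a member or of a gene of the other lists. Applying the alternatives to those lists was chosen after seeing the data. Alternatives were other scalings, floors of 4, 8 and 32, no filter, hybridisation 2.1 alone, the block, 2 states alone, another choice of probe set, and leaving out each culture. Values per culture are given for members that pass in any comparison, for a-specific and α-specific members and for the signalling chain. The members, the gene lists and the tests were chosen with earlier results of these data known.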

Additional observations from a re-analysis of the deposited data

How the results depend on the processing

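The 15 calls on members kept their direction under all 21 alternatives. The count of 8 members passing between xylose-grown and glucose repressed cells became 13 with scaling on reference genes and 3 with no filter on low probe sets, and ranged from 4 to 9 with 1 culture left out. Of all probe sets, 19.2% were higher and 5.48% lower on reference genes, and 4.88% and 5.82% with no filter. The count was 5 without repressed culture 0, 4 without repressed culture 1, 4 without xylose culture 1 and 5 without xylose culture 2. In the same order, 7.49, 9.39, 8.54 and 8.18% of all probe sets were higher and 10.2, 11.7, 10.2 and 8.54% lower. With each repressed culture left out in turn, 1 member passed as lower (DIG2, STE24 and STE4). Under cyclic loess 8 members were higher and 1 (STE24) lower, where 12.2% of all probe sets were higher and 15.1% lower. The count of 3 between xylose-grown and derepressed cells became 5 with a floor of 32, in which PRM4 was lower, and ranged from 1 to 5, with 1 without xylose culture 1 or 2 and 5 without derepressed culture 0. With that floor 4.08% of all probe sets were higher and 2.35% lower. Without xylose culture 1, xylose culture 2 or derepressed culture 0, 1.05, 1.45 and 2.06% were higher and 0.8, 0.885 and 1.57% lower. The count of 4 between derepressed and repressed cells became 2 with a floor of 32 and 2 with no filter, and ranged from 2 to 5, with 2 without repressed culture 1 or derepressed culture 1. Of all probe sets, 12.9% were higher and 19.3% lower with that floor, and 6.72% and 9.06% with no filter. Without those cultures 12.4 and 13.6% were higher and 16.9 and 16.7% lower. The causes of these changes were not tested. With no filter a larger number of probe sets entered both the fit and the adjustment, and the part of each was not tested. With the culture number as a block 7, 3 and 4 members passed. Of all probe sets, 14.2, 5.56 and 16.3% were then higher and 16.5, 2.72 and 23% lower. The block ended the calls of AGA1, PRM10 and STE4 and added STE3 and STE23, as given above, and changed no other call on members. No filter ended 8 of the 15 calls (STE4, FUS3, AGA1, FIG2, both of PRM5, and those of PRM10 between repressed cells and either later state). Comparing only 2 states ended 4 (STE4, FIG2, and PRM5 and PRM10 on xylose against repressed cells), and 7 were lost without repressed culture 1 and 7 without xylose culture 1. Signals near the floor limit FUS1, FIG1, MSG5, STE7 and MFA2, and 8 members have no test.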

Other observations

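Members with signals mostly or wholly under the floor of 16 gave further calls with lower floors. With a floor of 4, FUS2 was higher than in repressed cells both on xylose (1.53, adjusted p = 0.000864 in limma) and in derepressed cells (1.28, adjusted p = 0.00107). FIG1 was higher on xylose than in repressed cells (2.10, adjusted p = 0.0116) and than in derepressed cells (2.22, adjusted p = 0.0348), and MSG5 was higher on xylose than in repressed cells with a floor of 8 (1.10, adjusted p = 0.049). The linear signals do not say whether such low values are above the background of these probe sets.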
